A study of Homo sapiens with 11 samples.

Results

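Tamoxifen was compared with its control in 2 pairs of libraries from T47D-TamR, a tamoxifen-resistant subline of the estrogen receptor-positive breast cancer line T47D. These were 4 of the 11 libraries in the series, chosen by their labels alone. In the siRNA pair, cells transfected with control siRNA at 10 nM received 0.5 µM tamoxifen or no tamoxifen for 72 h. In the drug pair, cells received 0.5 µM tamoxifen or the DMSO vehicle, for a time not given in the sources used here. All 4 cultures had first been deprived of estrogen for 48 h in stripped serum without phenol red. The subline had been selected and propagated in 1e-07 M tamoxifen, so the controls are resistant cells with a history of the drug, and no untreated parental T47D was analysed here. The other 7 libraries hold NLK knockdown with 2 siRNAs in T47D-TamR, VX-702 in T47D-TamR, and the breast cancer line BT483 with control siRNA, control siRNA and 0.5 µM tamoxifen, or the 2 NLK siRNAs. Each group had 1 library.

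Tamoxifen is a selective estrogen receptor modulator. In the breast epithelium it occupies the estrogen receptor, encoded by ESR1, and lowers transcription of receptor targets such as PGR, GREB1 and TFF1, which in sensitive cells slows entry into the cell cycle. The drug also binds proteins outside the receptor pathway, among them EBP, an isomerase of cholesterol synthesis, and as a cationic amphiphile it collects in lysosomes. Resistant cells keep growing with the drug present, by routes that include loss of receptor dependence and stronger growth factor signalling.

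The 4 libraries held 24884030 to 26915863 counts, and 3 counts, taken as the limit below which a value is not told from 0, equalled 0.111 to 0.121 CPM. Mitochondrially encoded genes took 6.47 to 8.42% of counts. All 22 luminal epithelial markers were detected, with summed levels of 8478 to 11042 CPM, while 12 leukocyte markers summed to 4.04 to 5.25 CPM and 8 endothelial markers to 0.888 to 1.21 CPM. The 17 fibroblast markers, some of which epithelial lines also express, summed to 286 to 385 CPM, mostly from COL5A1, at 194 to 239 CPM. Since no group had replicates, the tests below take the 2 pairs as replicates of each other and measure only the spread between them. In the main fit that spread is mostly pooled over genes. The pooled part had a median weight of 62.1 degrees of freedom, against 1 from each gene. Small p-values thus do not come from the 2 pairs of a single gene alone.

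With tamoxifen far more genes were lower than higher, and the genes low in the drug pair were mostly low in the siRNA pair as well. Among 11715 genes with a mean of at least 5 CPM, 203 were lower by over 1.5-fold in both pairs (1.73% of those genes). Only 3 were higher by over 1.5-fold in both (0.0256%), and 2 moved past that size in opposite ways (0.0171%). The change was larger in the siRNA pair, where 1215 genes (10.4%) were lower past 1.5-fold against 228 (1.95%) in the drug pair. Of the 228, 89.0% were also lower past 1.5-fold in the siRNA pair, and of the 1215, 16.7% were also lower past that size in the drug pair. The first share was 55.6% at a mean of at least 1 CPM and 50.0% at 2-fold. In edgeR's quasi-likelihood test with the pair as a block and Benjamini-Hochberg adjustment, 1331 of 18817 genes (7.07%) passed an adjusted p of 0.05. Of these, 1252 (6.65%) were lower and 79 (0.42%) were higher under tamoxifen. Across the 11715 genes the log2 ratios of the pairs had Pearson's r = 0.658 and Spearman's rho = 0.604; genes are not independent replicates. A fit of all 11 libraries, whose spread also draws on the NLK siRNAs, called 53 genes, all lower. With any 1 of the 4 libraries left out of that fit, edgeR called 0 genes, with 325 to 1114 at an unadjusted p under 0.05, and limma on the deposited log2 values also called 0, with 2305 at that unadjusted p.

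**Figure D1:**
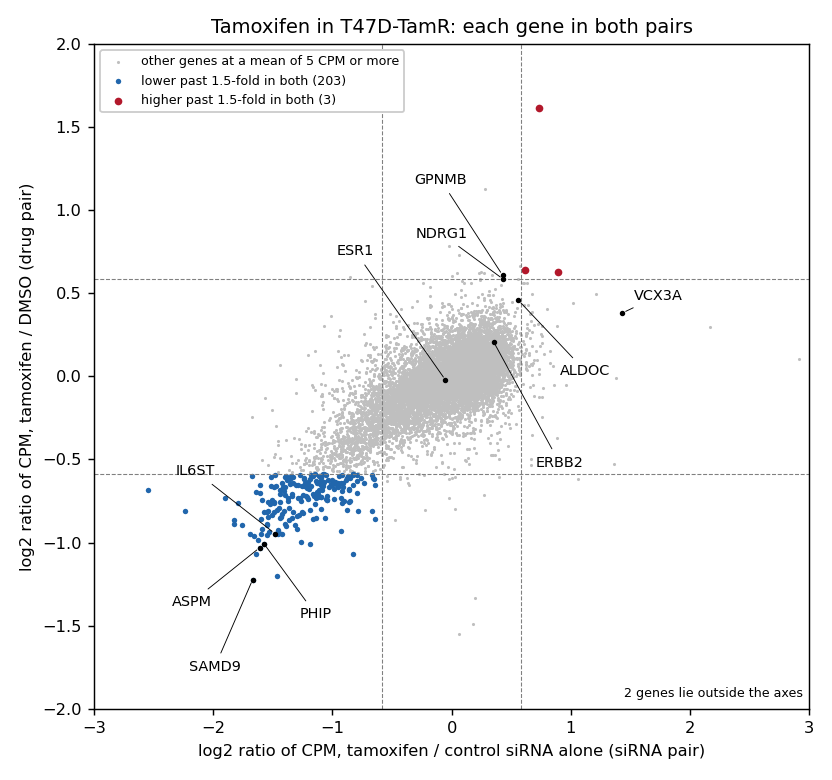
Each point is a gene with a mean of at least 5 CPM; the x axis is the log2 ratio of CPM in the siRNA pair and the y axis that in the drug pair, with dashed lines at 1.5-fold. The 203 blue genes are low in both pairs, the 3 red genes are high in both, and 2 genes lie outside the axes.

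What the falling genes shared was the make-up of their transcripts. The stretches below show it for 3 of the 15 lowest genes and 3 of the 15 highest. Each is the middle 120 bases of the longest transcript's coding sequence in GENCODE 29, 5′ to 3′, with G and C in capitals. DYNC2H1 (dynein-2 heavy chain, a motor of cilia) lies at chr11:103109410-103479863 on the plus strand of GRCh38, ATRX (a chromatin remodeller) at chrX:77504878-77786233 on the minus strand, and IL6ST (the gp130 receptor subunit for the interleukin-6 family) at chr5:55935095-55994993 on the minus strand. TEF (a circadian bZIP factor) lies at chr22:41367333-41399326 on the plus strand, FOXO4 (a forkhead factor held back by AKT) at chrX:71096197-71103535 on the plus strand, and ALDOC (a glycolytic aldolase) at chr17:28573115-28577264 on the minus strand.
DYNC2H1, lower, 40 of 120 bases G or C: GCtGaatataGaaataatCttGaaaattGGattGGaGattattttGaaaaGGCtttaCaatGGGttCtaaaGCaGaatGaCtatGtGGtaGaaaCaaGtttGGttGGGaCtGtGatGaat
ATRX, lower, 49 of 120: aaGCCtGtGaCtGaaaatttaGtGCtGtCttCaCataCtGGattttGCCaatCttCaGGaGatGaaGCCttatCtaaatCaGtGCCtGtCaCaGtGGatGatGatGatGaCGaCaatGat
IL6ST, lower, 53 of 120: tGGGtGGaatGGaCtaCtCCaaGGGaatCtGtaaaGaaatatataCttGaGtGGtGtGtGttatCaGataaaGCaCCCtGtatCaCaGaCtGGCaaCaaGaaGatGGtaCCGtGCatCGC
TEF, higher, 69 of 120: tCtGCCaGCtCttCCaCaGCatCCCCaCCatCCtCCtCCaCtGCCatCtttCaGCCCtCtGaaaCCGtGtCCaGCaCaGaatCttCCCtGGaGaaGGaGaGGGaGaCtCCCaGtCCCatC
FOXO4, higher, 70 of 120: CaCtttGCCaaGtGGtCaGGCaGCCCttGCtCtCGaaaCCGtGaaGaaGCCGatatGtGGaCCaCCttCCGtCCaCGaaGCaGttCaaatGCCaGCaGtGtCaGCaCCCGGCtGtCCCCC
ALDOC, higher, 62 of 120: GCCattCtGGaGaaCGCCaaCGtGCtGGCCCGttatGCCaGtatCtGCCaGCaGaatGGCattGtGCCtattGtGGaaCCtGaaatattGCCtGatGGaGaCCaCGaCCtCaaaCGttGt
In these stretches capitals made up 40 to 53 of 120 bases in the lower genes and 62 to 70 in the higher ones. Over whole coding sequences the 15 lowest genes ran from 35.4 to 41.7% GC and from 1944 to 12924 bases. The 11 protein-coding genes among the 15 highest ran from 56.0 to 66.7% GC and from 279 to 1518 bases. The 2 groups overlapped in neither measure. The gap was widest at the third base of the codon, where the lowest genes had 27.2 to 34.0% GC and the highest 60.0 to 88.6%.

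The same gradient ran through all protein-coding genes. Of 184 protein-coding genes lower past 1.5-fold in both pairs, 182 had a coding GC under 46%, against 29.8% of the 10461 protein-coding genes measured. Their median coding sequence was 4120 bases long with 39.4% GC, against 1392 bases and 51.7% for all 10461. GC at the third codon position followed the log2 ratio with r = 0.699 in the siRNA pair and 0.491 in the drug pair. GC of the non-coding part of the transcript gave 0.623 and 0.432. In BT483 the corresponding r of the tamoxifen ratio with GC at that position was 0.01. Within AT-rich genes, longer coding sequences went with lower ratios. At a coding GC of up to 42%, the 647 genes with up to 1500 coding bases had median log2 ratios of -0.44 in the siRNA pair and -0.16 in the drug pair. The 59 genes with over 6000 coding bases had -1.26 and -0.75, and 69.5% of them were lower past 1.5-fold in both pairs. In BT483 the same 59 genes had a median of -0.08. At a coding GC over 58%, medians in all 4 length classes lay between 0.22 and 0.26 in the siRNA pair and between 0.06 and 0.07 in the drug pair. These are descriptions over genes, which share the 4 libraries.

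**Figure D2:**
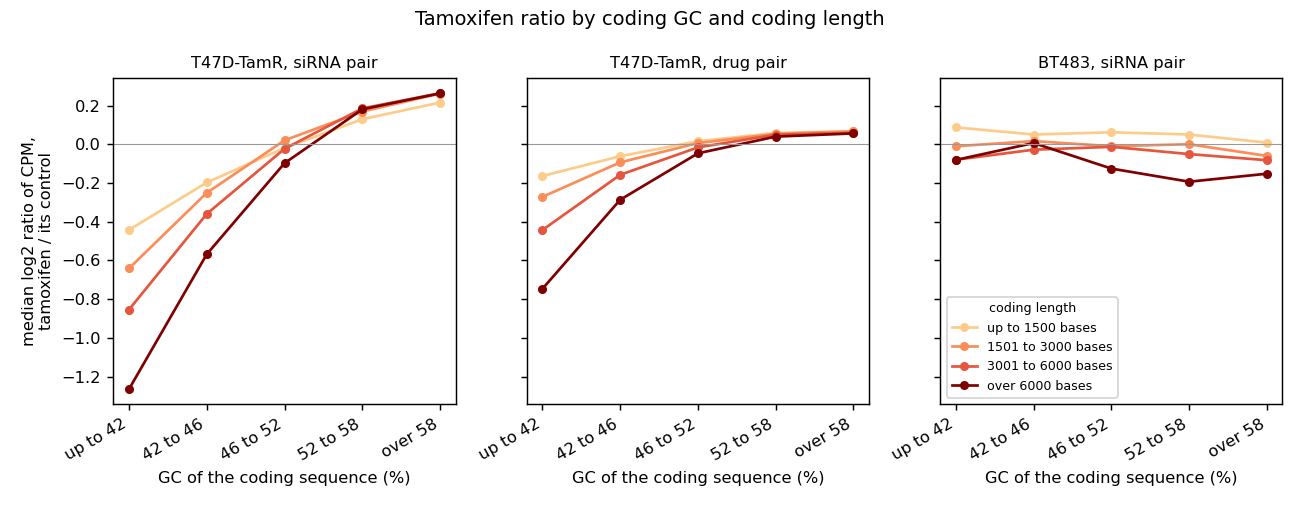
Median log2 ratio of CPM, tamoxifen over its control (y axis), by GC of the coding sequence (x axis) for 4 classes of coding length, in the T47D-TamR siRNA pair, the T47D-TamR drug pair and the BT483 pair. AT-rich genes fall with length in both T47D-TamR pairs (to -1.26 and -0.75) and stay near 0 in BT483.

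Because composition and ratio moved together, the test was repeated with each library's dependence on transcript length and GC removed. That fit called 482 of 18308 genes (2.63%), 242 higher (1.32%) and 240 lower (1.31%), of which 254 were called with the same sign before. The 239 called higher at a mean of at least 5 CPM had a median longest transcript of 10240 bases, against 3322 over all genes. Their median log2 ratios before correction were -0.01 in the siRNA pair and 0.05 in the drug pair. Most of these higher calls therefore rest on the correction at very long annotated transcripts. A second correction, chosen after seeing the data, used coding and non-coding length and GC of protein-coding genes. It called 517 of 13092 (3.95%), 142 higher (1.08%) and 375 lower (2.86%). Past 1.5-fold in both pairs, 32 genes were lower after the first correction and 7 after the second. All 3 fits called 150 genes, 142 lower and 8 higher. A correction of this kind also removes any change by the drug that itself follows composition, so values before and after it are given side by side below.

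The 15 genes with the largest fall shared by both pairs were called before the correction for transcript length and GC and after it. IL6ST stood at 168 CPM with control siRNA and 60.0 with tamoxifen, and at 136 with DMSO and 70.5 with tamoxifen. Both tamoxifen libraries were far below both controls. Its log2 change was -1.21 (SE 0.12, edgeR adjusted p = 3.76e-10), and it stayed lower after both corrections (edgeR adjusted p = 0.0125 and 1.64e-05). Genes said here and below to separate both tamoxifen libraries from both controls were mostly picked for a shared change. The share of all genes that separate so is not given. Of the 11715 genes with a mean of at least 5 CPM, 73.6% had the same sign in both pairs. PHIP, a bromodomain protein, read 83.3 and 27.9 CPM in the siRNA pair and 83.5 and 41.5 in the drug pair. The controls matched closely and the siRNA pair fell further. ASPM, a spindle pole protein, went from 76.7 to 25.1 CPM and from 83.7 to 40.9. DYNC2H1 went from 36.7 to 13.2 CPM and from 36.6 to 15.9. Its second-correction log2 change was -0.16 (edgeR adjusted p = 0.467), a value that fell short of the threshold. The remaining 11 include nuclear and chromosome proteins: RANBP2 of the nuclear pore, ATRX, BDP1 of RNA polymerase III initiation, and REV3L, the catalytic subunit of DNA polymerase zeta. RANBP2 went from 84.3 to 27.9 CPM and from 80.9 to 41.9, and ATRX from 48.4 to 15.3 and from 53.9 to 27.7. Others serve the membrane and signalling systems: EEA1 of early endosomes, VPS13A of lipid transfer, and RICTOR, the defining subunit of mTORC2. EEA1 went from 88.6 to 27.4 CPM and from 86.5 to 44.8. RICTOR, at 23.1 and 10.1 CPM and at 20.8 and 10.3, fell almost equally in both pairs. SAMD9, an antiviral factor, MAP9, a microtubule protein, and CRYBG3 also belong to the group. Over the 15 genes the log2 ratio ran from -1.19 to -1.69 in the siRNA pair and from -0.95 to -1.22 in the drug pair. After the second correction, 9 of the 15 were still called lower, among them IL6ST, PHIP, REV3L, MAP9, BDP1, CRYBG3, RANBP2 and EEA1.

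The 10 genes with the smallest p at a mean log2 CPM of at least 1 were all lower. They add the cytoskeletal linkers DST and UTRN, the replication timing factor RIF1, the meiotic chromosome protein SYCP2, and KIAA1109. DST, one of the most abundant of them, went from 273 to 99.4 CPM and from 270 to 142. UTRN went from 177 to 79.0 CPM and from 174 to 95.9 and stayed lower after the second correction (edgeR adjusted p = 1.44e-04). SYCP2, with a log2 change of -1.12 before, had 0.09 after the second correction (edgeR adjusted p = 0.488). CYCS, LDHB and NKTR, called lower in all 3 fits, were singled out after their values were seen. CYCS, which encodes cytochrome c, went from 357 to 213 CPM and from 247 to 183. LDHB, the lactate dehydrogenase B subunit, went from 12.1 to 3.92 CPM and from 4.62 to 2.81, and its log2 change of -1.22 was -1.20 after the second correction. NKTR, a cyclophilin-domain protein, went from 232 to 109 CPM and from 248 to 154.

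Rises were smaller and fewer. Of the 15 genes with the largest shared rise, 13 were called by edgeR, and 4 of these were also called after the transcript length and GC correction: ALDOC, NDRG1 and the processed pseudogenes AL121871.1 and FTLP3. Processed pseudogenes share sequence with their parent genes, so the counts of AL121871.1, FTLP3, AL133260.1 and KRT18P10 are uncertain. AL133260.1 had the largest shared rise, from 49.7 to 82.9 CPM and from 18.8 to 57.9. TEF went from 9.42 to 14.4 CPM and from 8.16 to 12.1 (log2 change 0.59, SE 0.16, edgeR adjusted p = 0.0121). DDIT4, an inhibitor of mTORC1, went from 4.16 to 6.66 CPM and from 5.95 to 8.42, and FOXO4 from 5.82 to 8.62 and from 6.43 to 9.69. Both tamoxifen libraries were above both controls for each of these 3 genes. MOSPD3, NATD1, RTN2 and FOXI1, a forkhead factor of ionocytes, rose by log2 changes between 0.58 and 0.63. After the first correction the edgeR adjusted p of these 7 genes lay between 0.109 and 0.198. ECHDC3 and C9orf116 did not pass the test before the correction either (edgeR adjusted p = 0.156 and 0.0898).

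The 8 genes called higher in all 3 fits were ALDOC, NDRG1, GPNMB, INSIG1, FTL, FBXO32, DEGS2 and VCX3A. ALDOC went from 40.9 to 60.4 CPM in the siRNA pair and from 55.7 to 76.6 in the drug pair (log2 change 0.51, SE 0.12, edgeR adjusted p = 0.0022). Both tamoxifen libraries were above both controls. NDRG1, induced by hypoxia and by differentiation, went from 46.8 to 63.2 CPM and from 124 to 186 (log2 change 0.51, SE 0.11, edgeR adjusted p = 0.00112). It rose in both pairs, but the arms started from levels so far apart that the groups overlapped. GPNMB, a lysosomal glycoprotein, went from 44.7 to 60.2 CPM and from 13.4 to 20.5, again with different starting levels (log2 change 0.51, SE 0.13, edgeR adjusted p = 0.00596). FTL, the ferritin light chain of iron storage, went from 126 to 173 CPM and from 133 to 162. DEGS2, a dihydroceramide desaturase, went from 87.9 to 127 CPM and from 96.5 to 126. FTL and DEGS2 were higher in both tamoxifen libraries than in both controls. FBXO32, a ubiquitin ligase subunit induced by FOXO factors in muscle wasting, went from 45.8 to 57.9 CPM and from 60.1 to 80.1. VCX3A, a member of a family of near-identical X-linked genes whose counts are therefore uncertain, went from 6.93 to 18.8 CPM and from 2.05 to 2.70. Not all of these rises were particular to tamoxifen. With VX-702, which shares the DMSO control, ALDOC read 76.8 CPM, DEGS2 129 and FTL 158, scaled over all 11 libraries. Those levels were near the ones with tamoxifen in the drug pair, and VCX3A, at 4.32 CPM, was above its own. NDRG1 read 139 CPM with VX-702, FBXO32 63.5, GPNMB 14.5 and INSIG1 51.3, nearer their DMSO levels. With NLK siRNA type 2, GPNMB read 79.5 CPM, INSIG1 74.3 and FBXO32 60.9, near or above their tamoxifen levels in the siRNA pair. With type 1 they read 44.5, 59.4 and 30.9 CPM, near or below their control siRNA levels. NDRG1 read 36.0 and 37.8 CPM with types 1 and 2, below its control siRNA level.

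**Figure D3:**
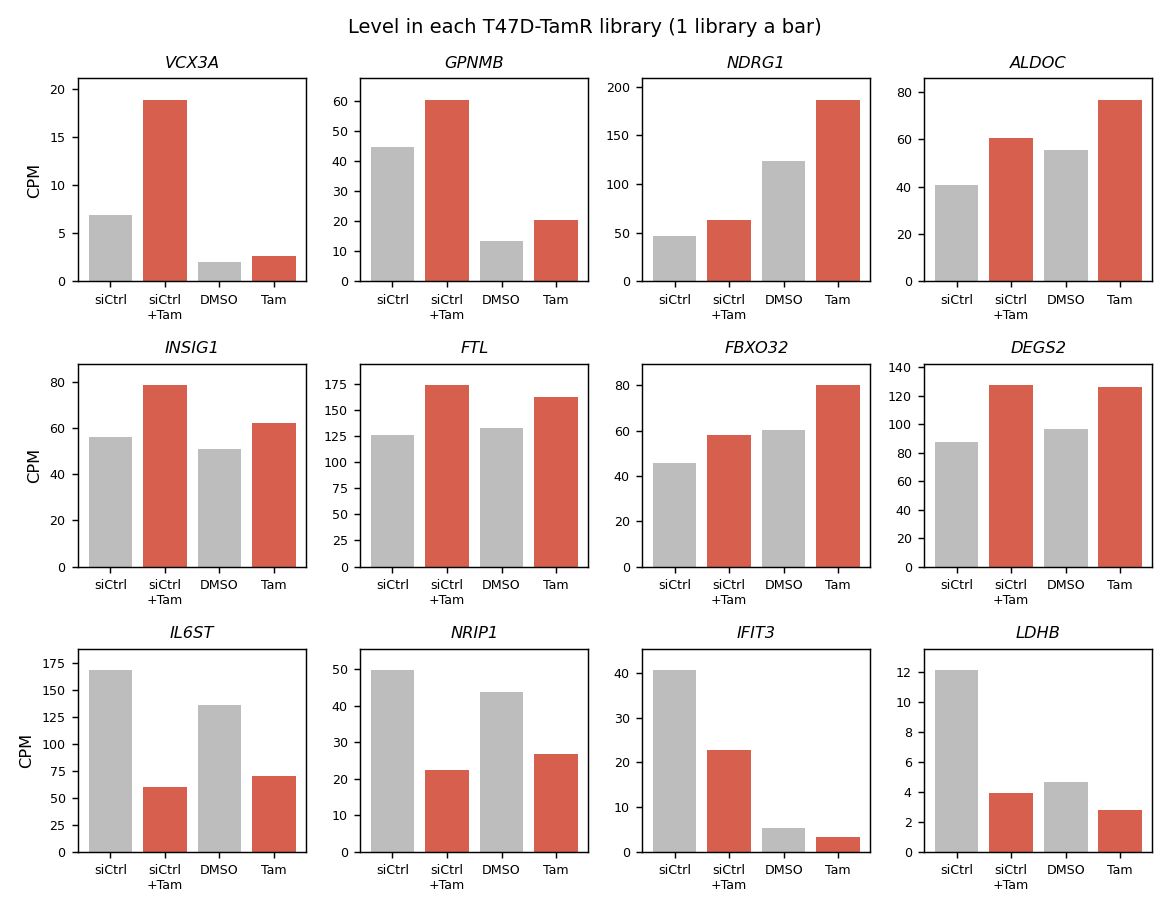
Level in CPM (y axis, from 0) of 12 genes in each of the 4 T47D-TamR libraries, 1 library a bar: control siRNA, control siRNA and tamoxifen, DMSO, and tamoxifen. VCX3A to DEGS2 are the 8 genes called higher in all 3 fits, and IL6ST, NRIP1, IFIT3 and LDHB are examples called lower in all 3.

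Of the estrogen receptor pathway, the receptor gene itself was expressed and some classical targets were near the detection limit. ESR1 stood at 24.7 and 23.8 CPM in the siRNA pair and 22.2 and 21.9 in the drug pair, a log2 change of -0.04 (SE 0.14, edgeR adjusted p = 0.924). GREB1 stayed at or under 0.277 CPM, TFF1 at or under 0.158 CPM and the anti-apoptotic BCL2 at or under 0.262 CPM in all 4 libraries, too low to be tested. PGR, the progesterone receptor gene, had 17 counts with control siRNA and 1 with tamoxifen, and 19 with DMSO and 6 with tamoxifen. The tamoxifen to control ratio was 0.055 (95% exact binomial interval 0.00132 to 0.351, counting error only) in the siRNA pair and 0.294 (0.0961 to 0.766) in the drug pair. The log2 change of PGR was -2.47 (SE 0.70, edgeR adjusted p = 0.0164). After the corrections its edgeR adjusted p was 0.187 and 0.0645. CCND1, the cyclin D1 gene, stood at 79.4 and 90.5 CPM and at 64.7 and 70.9 (edgeR adjusted p = 0.504). MYC stood at 7.80 and 10.2 CPM and at 8.48 and 7.56 (edgeR adjusted p = 0.794). The receptor kinase gene ERBB2 read 464 and 592 CPM in the siRNA pair and 577 and 666 in the drug pair, which did not pass (edgeR adjusted p = 0.131). EBP read 29.1 and 32.9 CPM, then 30.9 and 28.7 (edgeR adjusted p = 0.921). The kinase gene NLK, target of the study's knockdown, read 29.2 and 28.2 CPM, then 32.9 and 32.4 (edgeR adjusted p = 0.922).

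Of 31 tested estrogen response genes, 3 were called lower and none higher: PGR, NRIP1 and MYBL1. That share is near the 6.65% of all genes called lower. Their list had median log2 ratios of 0.03 in the siRNA pair and -0.06 in the drug pair, beside 0.03 and 0.01 over all genes. NRIP1, a receptor corepressor that is itself an estrogen target, went from 49.7 to 22.4 CPM and from 43.9 to 26.7 (log2 change -0.93, SE 0.13, edgeR adjusted p = 4.70e-07). Both tamoxifen libraries were below both controls, and NRIP1 was called lower after both corrections (edgeR adjusted p = 0.0174 and 0.00278). NRIP1 was also low without tamoxifen, at 34.2 and 37.0 CPM with NLK siRNA types 1 and 2 and 27.3 with VX-702, scaled over all 11 libraries. Whether its fall is particular to tamoxifen was not tested. MYBL1 went from 50.7 to 30.4 CPM and from 49.9 to 31.9, and did not pass after either correction (edgeR adjusted p = 0.151 and 0.285). No gene of the 22 luminal factors was called, beside 7.07% of all genes, and none among so few genes is near that share.

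Part of the mitotic genes fell. Of 29 tested G2/M genes 10 were called lower, against 6.65% of all genes, and 0 higher: TOP2A, CENPE, CENPF, TTK, KIF11, ASPM, HMMR, MKI67, DLGAP5 and NDC80. TOP2A, the topoisomerase of dividing cells, went from 360 to 153 CPM and from 384 to 243. MKI67, the proliferation antigen, went from 198 to 103 CPM and from 220 to 169. CENPE, a kinetochore motor, went from 29.6 to 10.6 CPM and from 31.4 to 19.8. Controls of both pairs were above both tamoxifen libraries for these 3 genes. The 10 called genes were also below both controls in the T47D-TamR libraries treated without tamoxifen. TOP2A read 118 and 137 CPM with NLK siRNA types 1 and 2 and 221 with VX-702, scaled over all 11 libraries. MKI67 read 126 and 139 CPM with those siRNAs and 155 with VX-702. Whether the fall is particular to tamoxifen was not tested. The list's median GC of 43.2% was lower than the 48.3% of all genes. After the first correction 5 stayed lower (TOP2A, TTK, ASPM, HMMR and DLGAP5) and after the second 4 (TOP2A, TTK, HMMR and DLGAP5). Over all genes 1.31% and 2.86% were called lower in those fits. The G2/M median moved from -0.19 and -0.11 to 0.03 and -0.02 after the second. CENPE turned to a log2 change of 0.30 there (edgeR adjusted p = 0.0957). Of 29 G1/S genes 3 were called lower, a share near that of all genes, among them the checkpoint mediator CLSPN and the DNA polymerase alpha gene POLA1. CLSPN went from 66.2 to 45.6 CPM and from 64.6 to 51.6 and stayed lower after both corrections (edgeR adjusted p = 0.031 and 0.0459). The G1/S medians were 0.10 and 0.07. In bulk RNA, fewer dividing cells and less of these transcripts per cell cannot be told apart.

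Some interferon-stimulated genes fell in both pairs, several from very different starting levels. Of 33 tested, 9 were called lower, against 6.65% of all genes, and 0 higher: IFIT1, IFIT3, IFI44, IFI44L, IFIH1, DDX60, RSAD2, SAMD9 and SAMD9L. Over the list 14 of 28 genes were lower in both pairs and 5 higher in both, against 34.1% and 39.5% of all genes. IFIT3, an antiviral effector, went from 40.6 to 22.8 CPM with siRNA and from 5.35 to 3.37 without (log2 change -0.77, SE 0.16, edgeR adjusted p = 4.16e-04). IFIH1, the cytosolic sensor of double-stranded RNA, went from 39.5 to 22.3 CPM and from 18.9 to 13.4. RSAD2, the antiviral enzyme viperin, went from 35.1 to 23.1 CPM and from 3.46 to 2.32. All 3 stood higher in the siRNA pair than in the drug pair, tamoxifen or not; the part of transfection was not tested. With VX-702, IFIT3 read 5.20 CPM and RSAD2 3.56, nearer their DMSO levels, while IFIH1 read 14.3, nearer its level with tamoxifen. SAMD9 read 1.63 CPM with VX-702, beside 4.38 with DMSO and 1.83 with tamoxifen. With NLK siRNA types 1 and 2, IFIT3 read 41.8 and 92.3 CPM, IFIH1 35.1 and 62.2, and RSAD2 32.7 and 77.4. Levels with VX-702 and NLK siRNA are scaled over all 11 libraries. Whether the falls are particular to tamoxifen was not tested. The list medians were -0.18 and -0.10. After the first correction 3 were called lower (IFIT3, IFIH1 and SAMD9), and after the second 4 (IFIT3, IFIH1, RSAD2 and MX1). Over all genes 1.31% and 2.86% were called lower in those fits. MX1 read 311 and 319 CPM, then 81.3 and 73.6, and had not passed before correction (edgeR adjusted p = 0.853).

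Few cholesterol synthesis genes passed the test before correction. Of 24 tested, INSIG1 and TM7SF2 were called higher, against 0.42% of all genes, and none lower, and 16 were higher in both pairs against 3 lower in both. The medians were 0.30 and 0.15, beside 0.03 and 0.01 over all genes, and fell to 0.16 and 0.12 after the first correction and 0.15 and 0.11 after the second. INSIG1, a sterol-induced retention protein and itself a target of the sterol-regulated factor SREBP, went from 56.2 to 78.5 CPM and from 51.1 to 62.0 (log2 change 0.38, SE 0.12, edgeR adjusted p = 0.0347). TM7SF2, a sterol reductase, went from 167 to 228 CPM and from 178 to 211 (edgeR adjusted p = 0.0349), and had an edgeR adjusted p of 0.103 after the first correction. Both genes were higher in each tamoxifen library than in each control. With NLK siRNA type 1, NLK siRNA type 2 and VX-702, INSIG1 read 59.4, 74.3 and 51.3 CPM, scaled over all 11 libraries. TM7SF2 read 191, 190 and 190 CPM there. After the first correction 5 were called higher (INSIG1, HMGCS1, FDFT1, SQLE and MSMO1), and after the second 6, with HSD17B7 added. Over all genes 1.32% and 1.08% were called higher in those fits. SQLE, squalene epoxidase, read 267 and 335 CPM, then 249 and 307 (log2 change 0.31, edgeR adjusted p = 0.0663, and 0.0284 and 8.81e-04 after the corrections). FDFT1, squalene synthase, read 281 and 368 CPM, then 281 and 339 (edgeR adjusted p = 0.0504). With NLK siRNA type 1, NLK siRNA type 2 and VX-702, SQLE read 253, 330 and 283 CPM, and FDFT1 376, 238 and 342. Some of these levels without tamoxifen were near those with it. Whether the rises are particular to tamoxifen was not tested. MSMO1, the AT-rich gene of sterol 4-methyl oxidase, read 104 and 107 CPM, then 79.0 and 96.3. Its log2 value was 0.16 before the corrections (edgeR adjusted p = 0.50) and 0.58 after the second (edgeR adjusted p = 7.17e-05). HMGCS1 read 145 and 134 CPM, then 122 and 136, so its call after the corrections rests on them (log2 0.02 before, 0.25 after the second).

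Among 25 lysosome and autophagy genes GPNMB was called higher and none lower, against 0.42% and 6.65% of all genes. The list medians were 0.18 and 0.09, beside 0.03 and 0.01 over all genes. After both corrections NPC2, which carries cholesterol out of the lysosome, and the lysosomal membrane gene LAMP2 joined GPNMB. Over all genes 1.32% and 1.08% were called higher in those fits. NPC2 read 71.0 and 86.3 CPM, then 61.0 and 76.7. LAMP2 read 160 and 143 CPM, then 136 and 134, so its call rests on the corrections. Of 26 glycolysis and hypoxia genes ALDOC and NDRG1 were called higher and none lower, in every one of the 3 fits. The shares called higher over all genes are those just given. Over the glycolysis and hypoxia list 15 of 23 genes were higher in both pairs and 1 lower in both, against 39.5% and 34.1% of all genes. The medians of that list were 0.21 and 0.10, beside 0.03 and 0.01 over all genes. Its median GC of 54.8% was above that of all genes, and after the second correction the medians were 0.02 and 0.05. The ALDOC promoter, which lies at chr17:28576846-28577145 on the minus strand of GRCh38.p14 in RefSeq and runs from 250 bases before the start to 50 after it, is shown with the motif ACGTG, the core that hypoxia-inducible factors bind, in capitals on either strand.
ALDOC promoter: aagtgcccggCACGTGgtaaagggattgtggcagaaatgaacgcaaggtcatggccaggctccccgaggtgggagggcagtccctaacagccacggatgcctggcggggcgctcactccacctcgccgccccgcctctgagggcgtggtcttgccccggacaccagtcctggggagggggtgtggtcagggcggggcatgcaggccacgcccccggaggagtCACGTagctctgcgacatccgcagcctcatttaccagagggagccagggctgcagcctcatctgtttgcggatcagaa
It holds 3 matches, of which 2 overlap as both strands of 1 site. ACGTG occurred in 11 of the 24 glycolysis and hypoxia promoters matched, and in 26.3% of the 11108 promoters of tested genes. The sterol regulatory motif TCACNCCAC, on either strand, occurred in 1 of 18 matched cholesterol synthesis promoters and in 1.13% of all 11108. A match here is a description of the letters.

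Growth arrest and stress genes gave few calls before correction. None of 12 FOXO target genes was called, beside 7.07% of all genes. After the corrections 1.32% and 1.08% of all genes were called higher, and 1.31% and 2.86% lower. After both corrections CCNG2, KLHL24 and CITED2 were called higher, and after the second KLF6 was called lower (log2 change -0.25, edgeR adjusted p = 0.0313). KLHL24 had log2 ratios of -0.09 and -0.01 in the pairs before correction, so its call rests on the corrections. CITED2, a transcriptional coregulator, read 169 and 217 CPM, then 248 and 295 (edgeR adjusted p = 0.0722 before, 0.0442 and 0.0103 after). CCNG2, an atypical cyclin of arrested cells, had a log2 change of 0.22 before the corrections (edgeR adjusted p = 0.367) and 0.43 after the second (edgeR adjusted p = 0.00521). Of 23 p53 target genes FAS, RRM2B and CCNG1 were called lower, beside 6.65% of all genes, and none higher. FAS, a death receptor, went from 27.2 to 14.8 CPM and from 17.4 to 13.9, and none of these 3 passed after either correction. TP53INP1, another p53 target, had log2 ratios of 0.27 and 0.36 in the pairs and was called higher after both corrections (edgeR adjusted p = 0.0783 before, 0.0125 and 5.15e-04 after). BTG1, an antiproliferative gene, read 159 and 174 CPM, then 185 and 209, and was likewise called higher only in the 2 corrected fits. Of 27 nuclear oxidative phosphorylation genes 4 were called lower, against 6.65% of all genes: NDUFB3, NDUFB8, UQCRB and COX7C. NDUFB3, of complex I, went from 50.3 to 32.7 CPM and from 34.2 to 28.7. After the first correction none of the list was called lower and NDUFS1 and SDHC were called higher. Those 2 genes had log2 changes of -0.00364 and 0.09 before it, with longest transcripts of 11819 and 13566 bases, so their calls rest on the correction. After the second correction NDUFB3 and ATP5PB were called lower and none higher.

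**Figure D4:**
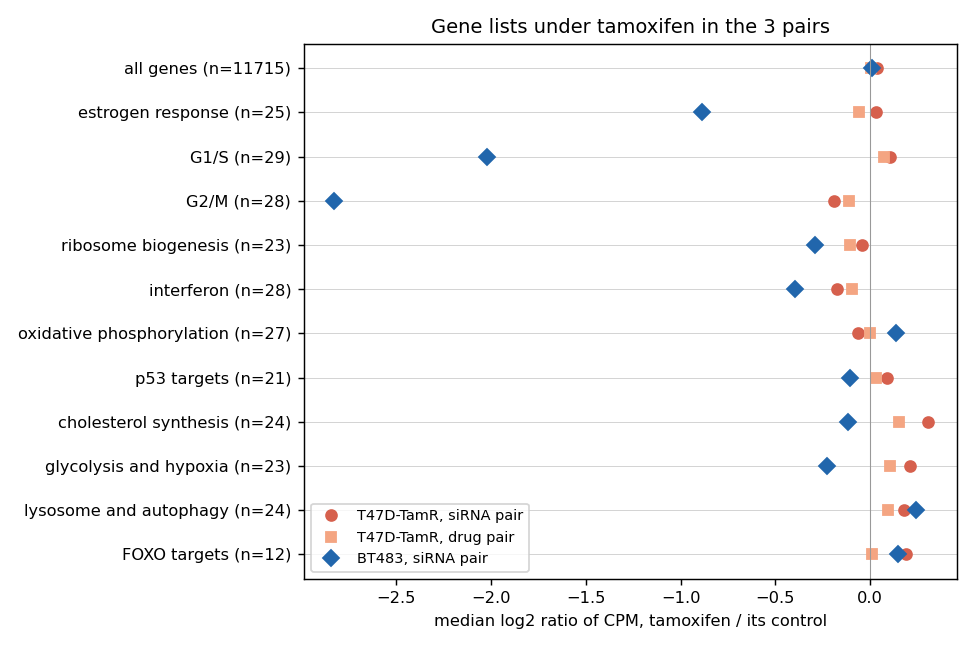
Median log2 ratio of CPM, tamoxifen over its control (x axis), for 11 gene lists and all genes at a mean of at least 5 CPM (y axis, number of genes in brackets), in the 2 T47D-TamR pairs and the BT483 pair. In BT483 the G2/M and G1/S medians were -2.83 and -2.02, while in T47D-TamR they lay between -0.19 and 0.10.

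The cell cycle response differed between T47D-TamR and BT483. The 2 lines differ in origin as well as in selection with tamoxifen, which cannot be told apart here, and BT483 had 1 tamoxifen library. In BT483, tamoxifen lowered 25 of 29 G1/S genes, 21 of 29 G2/M genes and 18 of 42 estrogen response genes, in a fit of all 11 libraries that called 1.4% of genes lower and 0.0874% higher in that line. The difference between the lines was itself called for 166 of 24023 genes (0.691%), 165 of them (0.687%) with the T47D-TamR value above that of BT483. These included 19 of 29 G1/S genes, 13 of 29 G2/M genes and 8 of 42 estrogen response genes. CCND1 went from 497 to 239 CPM in BT483, and its log2 difference between the lines was 1.29 (SE 0.26, edgeR adjusted p = 0.0321). For TOP2A the log2 ratio in BT483 was -3.14, beside -1.24 and -0.66 in the T47D-TamR pairs. No cholesterol, interferon, lysosome or glycolysis gene on the lists was called for the difference between lines. With 0.691% of all genes called, none on lists this short is near that share. It does not show that the lines responded alike there.

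The 2 T47D-TamR pairs were not shown to differ at any gene. The test of the siRNA pair minus the drug pair, in the fit of all 11 libraries, called 0 of 24023 genes (0%), with 258 at an unadjusted p under 0.05; DESeq2 called 0, with 35. The 4 genes of smallest p were expressed at few counts. POSTN, a matrix protein, had 48 counts with control siRNA and 0 with tamoxifen, at least 17.1-fold lower against a floor of 3 counts, and 10 and 9 counts in the drug pair. POSTN is one of the 17 fibroblast markers, of which 12 had their highest level of the 4 libraries with control siRNA. COL1A2 had 55 counts there and 6 with tamoxifen, VIM 40 and 5, SPARC 33 and 2, and COL3A1 31 and 3. In the drug pair COL1A2 had 9 and 9 counts, VIM 3 and 2, SPARC 6 and 2, and COL3A1 5 and 1. The part of these markers in the POSTN value was not tested. ALX4 had 0 and 4 counts, then 7 and 0; AC005391.1 had 2 and 8, then 12 and 0; MUC19 had 3 and 0, then 0 and 6.

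The genes that fell with tamoxifen were also low in the other treated T47D-TamR libraries. The 200 of the 203 genes with a known transcript had a median log2 ratio of -1.22 in the siRNA pair and -0.71 in the drug pair, by which they were chosen. Against the same control siRNA library, they had -0.73 with NLK siRNA type 1 and -0.79 with type 2. Against the same DMSO library, they had -0.80 with VX-702, an inhibitor of p38 kinase. These comparisons share their control libraries with the tamoxifen pairs, and whether the 2 controls or the treated libraries stand apart cannot be told apart here. The 2 controls, which differ in transfection, differed by 0.07. In BT483 the tamoxifen library gave -0.08 for these genes. As a share of all counts, they took 1.09 and 1.05% in the 2 T47D-TamR controls, 0.457 to 0.621% in the 5 treated T47D-TamR libraries, and 1.06 to 1.21% in the 4 BT483 libraries. The part of library preparation or RNA quality in this pattern was not tested.

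**Figure D5:**
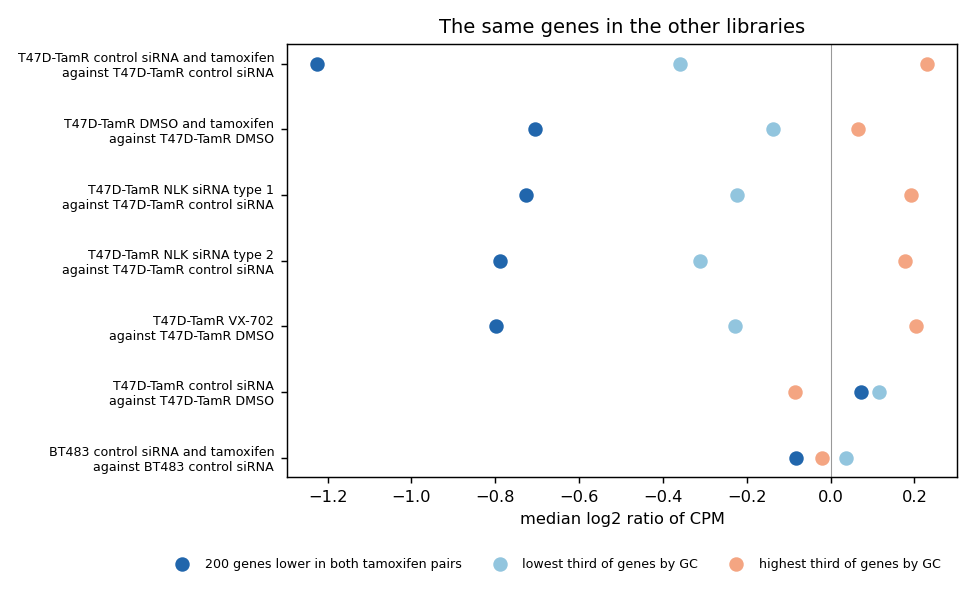
Median log2 ratio of CPM (x axis) for the 200 genes lower in both tamoxifen pairs, and for the genes in the lowest and highest tertile of transcript GC, in 7 comparisons (y axis). The 200 genes sit between -0.71 and -1.22 in the 5 comparisons of a treated T47D-TamR library with its control, and at 0.07 and -0.08 in the other 2.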

How the data were processed

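Stranded libraries of poly(A) RNA from cell cultures were sequenced, per the labels' protocols. The submitters' processing notes name GRCh38 as the build, and the deposited counts are labelled featureCounts. Which aligner and annotation made the counts is not given in the sources used here. Per gene, the authors' deposited files hold raw counts for 59087 symbols a library. Their deposited log2 TPM values served only as an alternative with limma 3.58.1. All columns were mapped by sample title (0 left unmapped). Of the symbols, 55906 matched a GENCODE 29 transcript with length and GC.

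Counts were tested with edgeR 4.0.16 in R 4.3.3 (TMM, factors 0.994 to 1.01; filterByExpr; robust quasi-likelihood F test, 2-sided, Benjamini-Hochberg, threshold 0.05), with the arm as block, 1 residual degree of freedom and a biological coefficient of variation of 0.0921. Differences between pairs and lines came from fits of all 11 libraries. This made 4 tests across genes beside the alternatives. CPM are TMM-scaled, and log2 ratios add a prior count of 2. The first correction subtracted a loess surface (span 0.3) of log2 CPM on length and GC; the second a spline surface. In simulated counts, 65% of 1.5-fold and 100% of 2-fold changes were recovered, and 5.71% of calls were false. The simulation gave all genes the same dispersion and no trend with GC or length. These shares therefore do not carry over to the calls in the real libraries. Named genes were a preset group of 10, the 15 highest and 15 lowest by the smaller of the 2 ratios at a mean of at least 5 CPM, the 10 of smallest p, leading members of the lists described, and up to 4 a direction for differences; others are said to be singled out or belong to a stated count. One gene within this rule is not reported here. The 32 lists and the members were chosen with earlier results of these data known. Labels name no separate cultures beyond 1 dish a library. Replicate numbers pair nothing, since each group has 1 library; the arm pairs each treated library with its control. Intervals cover counting error only.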

Additional observations from a re-analysis of the deposited data

Results flagged for a closer look

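For 8 genes, the 4 highest and the 4 lowest called, the tamoxifen change differed between T47D-TamR and BT483 in edgeR's quasi-likelihood test of the difference itself. The values are log2 differences, T47D-TamR minus BT483, in the fit of all 11 libraries. WT1 had 7.73 (edgeR adjusted p = 0.0245), with levels of 1.74 to 3.06 CPM in T47D-TamR and a fall from 1.24 to 0 CPM in BT483. LINC01511 had 6.43, at 29.1 to 33.9 CPM in T47D-TamR and 0.393 and 0 CPM in BT483. Both fitted values depend on a library at 0. TERT, the telomerase catalytic subunit, had 5.18, staying at 4.71 to 5.79 CPM in T47D-TamR while falling from 1.46 to 0.0376 CPM in BT483. AC099850.3 had 4.52, at 8.88 to 10.6 CPM in T47D-TamR and 2.53 and 0.113 CPM in BT483. The smallest positive values belonged to TMEM97 (1.24), the sigma-2 receptor gene, CCND1 (1.29) and the mitotic motor gene KIF22 (1.30), each of which fell in BT483. AL137003.1 was the 1 gene called in the other direction, at -2.62, with a rise from 1.69 to 9.52 CPM in BT483 and 4.26 to 5.51 CPM in T47D-TamR. BT483 has 1 tamoxifen pair, assumed to vary like the other libraries.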

How the results depend on the processing

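The number of genes called depended on which libraries set the spread. Without the replicate block, so with the pairing by arm ignored, 197 were called (1 higher, 196 lower). With the 7 T47D-TamR libraries 63 were called and with all 11 libraries 53, in both cases 0 higher. DESeq2 called 523 (6 higher, 517 lower), limma on the deposited log2 TPM values 0, the length and GC correction 482 (242 higher, 240 lower) and the coding correction, added after seeing the data, 517 (142 higher, 375 lower). Leaving out each of the 4 libraries in turn gave 0 to 0. RLE scaling, a minimum of 10 counts and no filter stayed within 1.5 times.

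The 203 genes lower past 1.5-fold in both pairs became 6 at 2-fold, 310 at a mean of at least 1 CPM, 77 on the deposited values, 32 after the length and GC correction and 7 after the coding correction. The 3 higher genes became 0 at 2-fold, 30 at 1 CPM and 0 after the coding correction. The difference between lines was called for 328 genes by DESeq2.

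Of 67 called genes named, only SYCP2 (0.0918) and CENPE (0.30) changed the sign of their log2 change, both under the coding correction. Uncalled values changed sign for ESR1 (0.0153 with 11 libraries, 0.0552 by limma, 0.0128 to 0.0177 with a library left out), NLK (0.0163, 0.0315, 0.12 and 0.0113 after the corrections, 0.0153 to 0.0171 with a library left out), MYC (-0.0460 after the coding correction, -0.17 to -0.13 with a library left out), EBP (-0.0570 and -0.11 after the corrections, -0.11 to -0.0653 with a library left out), HMGCS1 (-0.00608 by limma, -0.0823 to -0.0462 with a library left out) and KLHL24 (0.00498 with 11 libraries, 0.0280 by limma, 0.44 and 0.29 after the corrections, 0.0317 with a library left out). The same held for MX1 (0.0618 to 0.0978 with a library left out), LAMP2 (0.29 and 0.21 after the corrections, 0.0261 with a library left out) and NDUFS1, whose value of -0.00364 was positive with 11 libraries (0.0486), RLE scaling (0.00810), no filter (0.0157), DESeq2 (0.00812), limma (0.0151), the corrections (0.53 and 0.12) and 3 of the 4 fits with a library left out (3.33e-04, 0.0490 and 0.0968). The cause was not tested. With 1 library a group, treatment cannot be told apart from the library.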
